A study of Mus musculus with 18 samples.

Results

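The NF-κB genes described here are 10 of the 19862 genes of the deposited mouse table. They were taken as the rows whose gene symbol is Nfkb1, Nfkb2, Rela, Relb, Nfkbia, Nfkbie, Tnfaip3, Ikbkb, Icam1 or Vcam1, and each symbol matched 1 row. The choice used no measured value of the genes, but it was made with earlier results of these data known.

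The cells are mouse osteosarcoma cells, a bone tumour line of mixed strain background, labelled with postnatal day 299 as the age and derived from tumours of p53 and Rb conditional knockout mice. All of them carry floxed Prmt1 alleles (Prmt1 f/f) and stably express CreER, a Cre recombinase that tamoxifen activates. Prmt1 encodes the enzyme that makes most asymmetric dimethylarginine in mammalian cells. RNA sequencing was done on 3 libraries in each of 6 groups: knockout Total, knockout Light and knockout Heavy, from cells given tamoxifen (4OHT), and control Total, control Light and control Heavy, from cells given ethanol vehicle (ETOH). The labels call the control cells wild type in genotype, although they too carry the floxed alleles and CreER. Total is RNA of cleared cytoplasmic lysate. Light and Heavy are pooled sucrose gradient fractions of the same kind of lysate, with messages on fewer than 3 and on more than 3 ribosomes. No 4OHT-treated cells without floxed alleles are among the libraries, so what the drug or active Cre does and what the deletion does cannot be told apart. The labels do not say how many clones or cultures the libraries came from, so each p-value reflects only how these samples vary, and that variation may be technical.

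NF-κB proteins are dimeric transcription factors built from the subunits encoded by Nfkb1, Nfkb2, Rela, Relb and Rel. In resting cells IκB proteins hold the dimers in the cytoplasm. In the canonical pathway the kinase IKKβ, product of Ikbkb, marks IκB for destruction, whereas in the noncanonical pathway the p100 product of Nfkb2 is processed to p52, which pairs with RelB. The dimers activate many genes, among them those of their own inhibitors and of the adhesion molecules ICAM-1 and VCAM-1, and in bone the pathway is best known for its part in osteoclast formation.

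The depth was 32.3 to 57.9 M reads per library, with M for 1000000. Values are counts per 1000000 reads (CPM), back-calculated from the deposited log2(CPM + 1), and a log2 change is a difference of that log2 value, which understates the change of genes near or under 1 CPM. A CPM is a share of 1 library, so a rise in Heavy is a rise in the share of polysomal RNA and no rate of translation. In bulk samples, fewer cells of a type and less RNA per cell cannot be told apart. Prmt1 itself had 147, 176 and 173 CPM in the knockout Total libraries, against 256, 277 and 285 CPM in control Total. It was lower in knockout Total (log2 change -0.72, limma adjusted p = 0.0202) and in knockout Heavy (log2 change -1.88, limma adjusted p = 7.87e-06), but not called in Light (log2 change -0.20, limma adjusted p = 0.506). The Total call of Prmt1 was lost when the control library numbered 2, the control library numbered 3 or the knockout library numbered 1 was left out, with limma adjusted p up to 0.0801. The knockout library numbered 1 had the lowest Prmt1 value of its group in each fraction.

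Relb and Nfkb2, the genes of the noncanonical dimer, had the largest increases of log2(CPM + 1) among the 10 genes in the polysome fractions, a scale that understates Icam1, whose ratios of pooled reads were larger. Relb rose in all 3 RNA pools, 1.96-fold in Total, 2.13-fold in Light and 1.70-fold in Heavy, as the ratio of mean CPM. Nfkb2 rose in Light (2.10-fold) and Heavy (1.74-fold). Rela, Nfkbia and Vcam1 rose in Light. Rela was also called in Total, and Ikbkb just passed in Light, a call that most alternatives lost. Nfkbie rose in all 3 pools, and Icam1 rose in all 3 from almost no reads. Some calls of Rela, Nfkbie and Icam1 were lost under alternatives, as given below. Nfkb1 and Tnfaip3 passed the test in no knockout comparison.

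In Total RNA 4 of the 10 genes were higher in the knockout at a limma adjusted p under 0.05 and 0 were lower, where 26.4% of all 17515 tested genes were called, 16.1% as higher and 10.3% as lower. In Light 8 were higher and 0 lower, against 39.5% of all genes called, 26.8% as higher and 12.7% as lower. In Heavy 4 were higher and 0 lower, against 28.9% of all genes called, 18.5% as higher and 10.4% as lower. Lower genes at an unadjusted p under 0.05 were 1 in Total (Tnfaip3), 0 in Light and 0 in Heavy, and voom called 0 lower in each. Other alternatives did call lower genes in Total. Removal of the coding-length trend called 2, Nfkb1 and Tnfaip3, where 28.8% of all genes were called in either direction. Nfkb1 was also called lower with only the libraries of the comparison, and without the 3 knockout libraries numbered 1. The median log2 change of the 10 genes was 0.38 in Total, 0.55 in Light and 0.34 in Heavy, beside 0.01, 0.05 and 0.02 over all tested genes. Over the 11602 genes averaging 1 CPM or more it was -0.01, 0.14 and 0.05. Light changes depend on scaling: the median over genes averaging 1 CPM or more was 0.14 as deposited, -0.02 after quantile normalization and -0.06 after median-of-ratios scaling. Under these 2 scalings 5 and 6 of the 10 genes were called higher in Light. The 26.8% above is of the deposited values. The shares of all genes called higher under the 2 scalings are not given here, so these counts lack a background. The 3 comparisons use different libraries, but the fractions come from the same 2 kinds of cells, and the 10 genes passed the filter on low values, 9 of them averaging 1 CPM or more and Icam1 less.

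**Figure D1:**
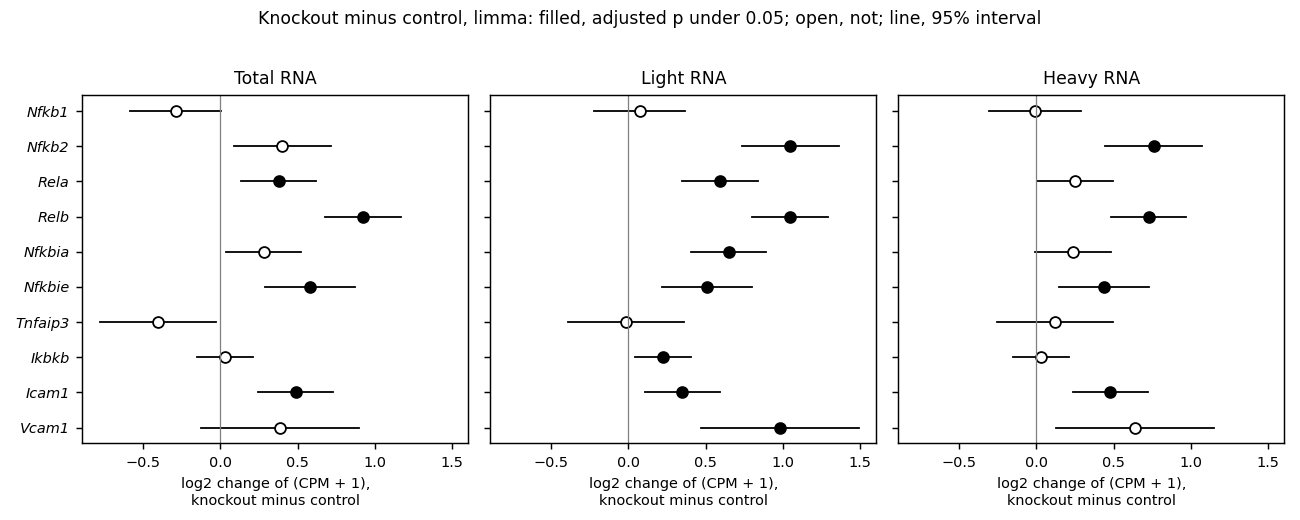
Log2 change, knockout minus control, of log2(CPM + 1) for the 10 genes (rows) in Total, Light and Heavy RNA, with 95% intervals from limma (n = 3 libraries per group) and filled points for an adjusted p under 0.05. Relb lies between 0.73 and 1.05 in the 3 pools, while Nfkb1 and Tnfaip3 lie on either side of 0.

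Per length, in CPM per kilobase of exon, the order of the genes in knockout Total RNA was Rela at 52.6 ± 4.3, Vcam1 at 48.0 ± 9.1, Nfkbia at 28.0 ± 1.4, Nfkb2 at 18.3 ± 1.8, Nfkb1 at 13.2 ± 1.2, Relb at 13.1 ± 1.3, Ikbkb at 11.6 ± 0.20, Nfkbie at 2.48 ± 0.31, Tnfaip3 at 1.84 ± 0.43 and Icam1 at 0.178 ± 0.097 (SD, n = 3). In control Total RNA it was Rela at 40.5 ± 4.0, Vcam1 at 36.4 ± 3.4, Nfkbia at 23.0 ± 1.5, Nfkb1 at 16.2 ± 0.30, Nfkb2 at 13.8 ± 1.3, Ikbkb at 11.4 ± 0.51, Relb at 6.66 ± 0.23, Tnfaip3 at 2.49 ± 0.42, Nfkbie at 1.53 ± 0.29 and Icam1 at 0.0101 ± 0.0175 (SD, n = 3). In knockout RNA the values of Rela and Vcam1 overlapped, as did those of Nfkb1 and Relb, those of Relb and Ikbkb, and those of Nfkbie and Tnfaip3. In control RNA Rela and Vcam1 were the neighbours whose values overlapped. The p65 subunit was thus the most abundant subunit message per length in both kinds of cells, and Icam1 lay far below all the others.

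**Figure D2:**
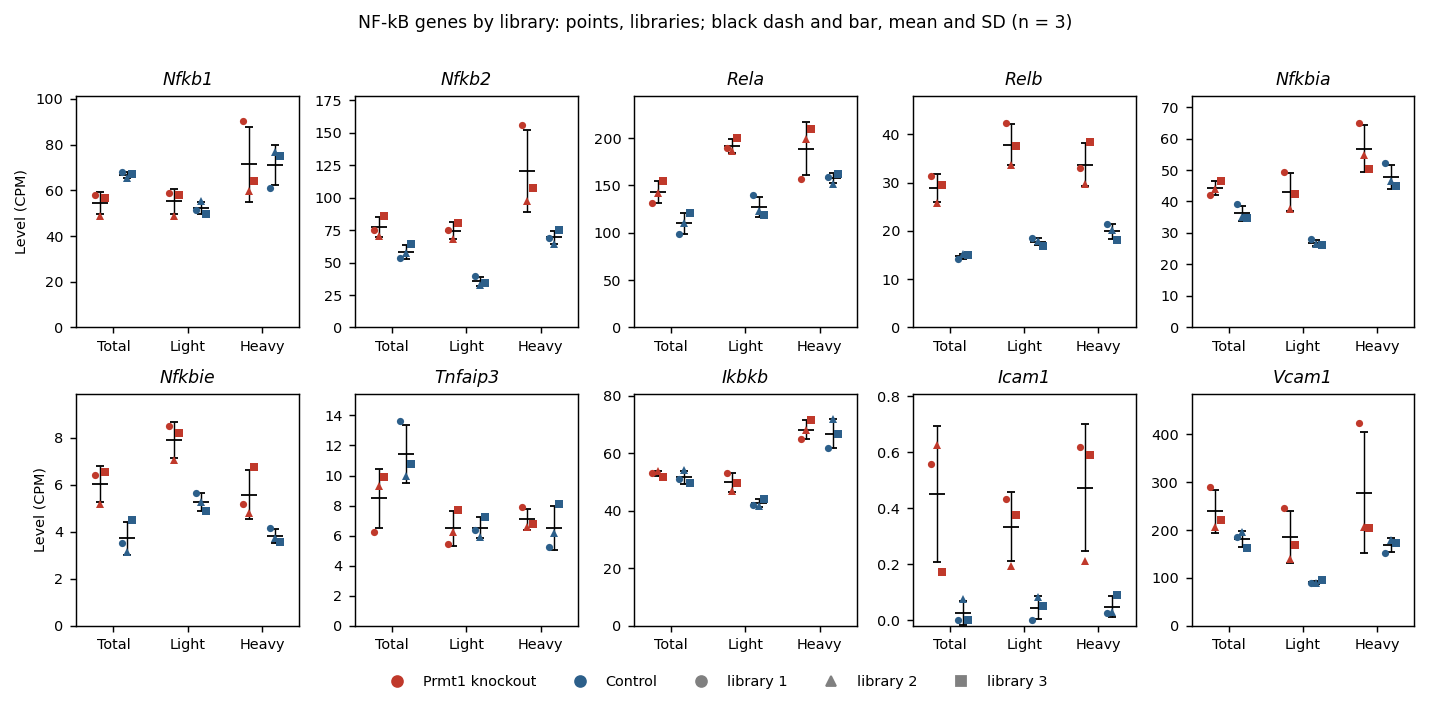
CPM of each of the 10 genes in every library (points, shaped by library number) with the mean and SD of each group (black dash and bar, n = 3), knockout left of control within Total, Light and Heavy RNA; each panel has its own linear axis. The knockout library numbered 1 is the highest Vcam1 value of its group in each fraction, with 424 CPM in Heavy.

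Relb encodes the RelB subunit (gene 19698, minus strand of chromosome 7 at 19606217 to 19629438 in mm10). It had 31.5, 25.8 and 29.6 CPM in the knockout Total libraries numbered 1 to 3, against 14.1, 15.1 and 14.9 CPM in control Total. In Light, Relb had 42.2, 33.7 and 37.7 CPM in knockout cells, against 18.5, 17.8 and 16.96 CPM in control cells. In Heavy, Relb had 33.1, 29.7 and 38.4 CPM in knockout cells, against 21.3, 20.2 and 18.1 CPM in control cells. Every knockout library lay above every control library of its fraction. The log2 changes were 0.92 in Total (SE 0.12, limma adjusted p = 1.92e-05), 1.05 in Light (SE 0.12, limma adjusted p = 3.46e-06) and 0.73 in Heavy (SE 0.12, limma adjusted p = 1.64e-04). All 3 calls held under each alternative that was run. Relb was the gene of the group with the lowest adjusted p in each of the 3 knockout comparisons.

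Nfkb2 encodes p100, the precursor of p52 (gene 18034, plus strand of chromosome 19 at 46304320 to 46312385 in mm10). It had 75.2, 68.1 and 80.6 CPM in the knockout Light libraries, against 39.8, 33.1 and 33.9 CPM in control Light. In Heavy, Nfkb2 had 156, 97.6 and 108 CPM in knockout cells, against 68.6, 64.7 and 74.8 CPM in control cells. The knockout libraries were higher throughout, and the one numbered 1 stood above the other two in Heavy. The log2 change was 1.05 in Light (SE 0.15, limma adjusted p = 4.27e-05) and 0.76 in Heavy (SE 0.15, limma adjusted p = 0.00103). In Total, Nfkb2 had 75.1, 70.8 and 85.9 CPM in knockout libraries, against 53.2, 57.5 and 64.0 CPM in control libraries. These groups did not overlap either, but the log2 change of 0.40 missed the threshold (SE 0.15, limma adjusted p = 0.0567). It was called in Total under 5 of 17 alternatives, with limma adjusted p between 0.0161 and 0.0458. The exons of Nfkb2 overlap those of Psd, a gene on the opposite strand that was looked at for this reason after the values were seen, and those of the noncoding AC114539.1. Psd averaged 17.6 ± 1.3 CPM in knockout Total and 7.29 ± 1.1 CPM in control Total (SD, n = 3 each), and it rose in all 3 pools (log2 changes 1.17, 1.33 and 1.46 in Total, Light and Heavy, limma adjusted p = 2.43e-05, 4.40e-06 and 2.54e-06). The sources used here do not say whether the counting used strand, so reads of Nfkb2 and Psd in the shared exons cannot be told apart, and the part of Psd in the Nfkb2 values was not tested.

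Rela encodes p65, the main activating subunit of the canonical pathway (gene 19697, plus strand of chromosome 19 at 5637483 to 5648130 in mm10). It had 189, 186 and 199.97 CPM in the knockout Light libraries, against 139.6, 123 and 119 CPM in control Light, with no overlap. It rose in Light by 0.59 on the log2 scale (SE 0.12, limma adjusted p = 7.43e-04). In Total, Rela had 132, 142 and 155 CPM in knockout libraries, against 98.9, 110.3 and 121 CPM in control libraries, again with no overlap. The log2 change there was 0.38 (SE 0.12, limma adjusted p = 0.0238), a call that was lost under 5 of 17 alternatives. These were median-of-ratios scaling and the fits without the control Total library numbered 1 or 2 or the knockout Total library numbered 2 or 3, with limma adjusted p between 0.0568 and 0.109. In Heavy, Rela had 157, 199 and 209.9 CPM in knockout libraries, against 159, 152 and 162 CPM in control libraries. There the knockout library numbered 1 lay within the control range and the other two lay above it. The log2 change in Heavy was 0.25 (SE 0.12, limma adjusted p = 0.123), and without the knockout Heavy library numbered 1 it was 0.38 (limma adjusted p = 0.0110, in a range of 0.00736 to 0.720 over 17 alternatives).

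Nfkb1 encodes p105, the precursor of p50 (gene 18033, minus strand of chromosome 3 at 135584655 to 135691547 in mm10). It had 57.9, 49.0 and 56.9 CPM in the knockout Total libraries, against 67.9, 65.5 and 67.0 CPM in control Total. The knockout libraries were all lower, but the log2 change of -0.29 did not pass (SE 0.14, limma adjusted p = 0.142). It passed under 3 of 17 alternatives, with limma adjusted p between 0.00940 and 0.0410. In Light, Nfkb1 had 58.8, 48.7 and 57.9 CPM in knockout cells, against 51.6, 55.3 and 49.8 CPM in control cells. In Heavy, Nfkb1 had 90.2, 59.9 and 64.0 CPM in knockout cells, against 60.9, 76.8 and 75.3 CPM in control cells. Both pairs of groups overlapped, and in Heavy the knockout libraries held both the highest and the lowest value. The log2 change was 0.07 in Light (limma adjusted p = 0.724) and -0.01 in Heavy (95% interval -0.30 to 0.29). The sign in Light turned under 3 alternatives, with a lowest value of -0.20 after removal of the coding-length trend.

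Nfkbia encodes IκBα, the inhibitor that NF-κB re-induces and that masks p65 dimers (gene 18035, minus strand of chromosome 12 at 55489410 to 55492647 in mm10). In Light, Nfkbia had 49.3, 37.5 and 42.4 CPM in knockout cells, against 28.1, 26.3 and 26.3 CPM in control cells. In Total, Nfkbia had 42.2, 43.9 and 46.6 CPM in knockout cells, against 39.0, 35.2 and 34.6 CPM in control cells. In Heavy, Nfkbia had 65.0, 54.8 and 50.4 CPM in knockout cells, against 52.2, 46.5 and 44.8 CPM in control cells. The groups stood apart in Light and Total and overlapped in Heavy, where the lowest knockout value was under the highest control value. Nfkbia rose in Light by 0.65 on the log2 scale (SE 0.11, limma adjusted p = 3.08e-04), a call that held under each of 17 alternatives. The log2 change was 0.28 in Total (SE 0.11, limma adjusted p = 0.0861) and 0.24 in Heavy (SE 0.11, limma adjusted p = 0.140), neither of which passed.

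Nfkbie encodes IκBε, another inhibitor of p65 and Rel dimers (gene 18037, plus strand of chromosome 17 at 45555703 to 45563169 in mm10). Its messages were scarce, with 6.39, 5.17 and 6.53 CPM in the knockout Total libraries, against 3.54, 3.13 and 4.49 CPM in control Total. In Light, Nfkbie had 8.51, 7.04 and 8.19 CPM in knockout cells, against 5.64, 5.25 and 4.86 CPM in control cells. In Heavy, Nfkbie had 5.19, 4.78 and 6.76 CPM in knockout cells, against 4.17, 3.72 and 3.55 CPM in control cells. No knockout library overlapped the control range of its fraction. The log2 change was 0.58 in Total (SE 0.14, limma adjusted p = 0.00502), 0.51 in Light (SE 0.14, limma adjusted p = 0.00779) and 0.44 in Heavy (SE 0.14, limma adjusted p = 0.0244). The call in Total held under all 17 alternatives. The Light call was lost under quantile normalization (limma adjusted p = 0.153) and median-of-ratios scaling (limma adjusted p = 0.0878), and the Heavy call under 6 of 17 alternatives, among them the fits without the knockout library numbered 3 and without the control libraries numbered 2 or 3 (limma adjusted p up to 0.106 among these, and 0.315 under quantile normalization).

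Tnfaip3 encodes A20, a ubiquitin-editing enzyme that shuts off signalling upstream of the kinase complex (gene 21929, minus strand of chromosome 10 at 19000910 to 19015657 in mm10). In Total, Tnfaip3 had 6.24, 9.28 and 9.90 CPM in knockout cells, against 13.6, 9.96 and 10.7 CPM in control cells. The knockout values were all lower, by a narrow margin between the highest knockout and the lowest control library. The log2 change of -0.40 did not pass (SE 0.18, limma adjusted p = 0.109), although it passed after removal of the coding-length trend (limma adjusted p = 0.0458, with a range of 0.0458 to 0.431 over its 17 alternatives). In Light, Tnfaip3 had 5.46, 6.24 and 7.73 CPM in knockout cells, against 6.40, 5.91 and 7.27 CPM in control cells. In Heavy, Tnfaip3 had 7.89, 6.57 and 6.76 CPM in knockout cells, against 5.25, 6.16 and 8.10 CPM in control cells. Both pairs overlapped, with log2 changes of -0.02 (95% interval -0.39 to 0.36) and 0.12 (95% interval -0.26 to 0.50). Tnfaip3 was called in no fraction on the deposited values.

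Ikbkb encodes IKKβ, the kinase that phosphorylates IκB (gene 16150, minus strand of chromosome 8 at 22659212 to 22706589 in mm10). In Total, Ikbkb had 52.9, 53.6 and 51.8 CPM in knockout cells, against 51.2, 54.2 and 49.7 CPM in control cells. In Heavy, Ikbkb had 65.0, 68.1 and 71.5 CPM in knockout cells, against 61.7, 71.7 and 66.8 CPM in control cells. Both pairs overlapped, and the log2 change was 0.03 in Total (95% interval -0.15 to 0.21) and 0.03 in Heavy (95% interval -0.15 to 0.21). In Light, Ikbkb had 53.2, 46.8 and 49.5 CPM in knockout cells, against 41.8, 41.6 and 44.1 CPM in control cells. The Light groups did not overlap, and the log2 change of 0.22 was just past the threshold (SE 0.09, limma adjusted p = 0.0497). That call was lost under 14 of 17 alternatives, and the log2 change was 0.00 under median-of-ratios scaling.

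Vcam1 encodes VCAM-1, the adhesion molecule that α4 integrins bind (gene 22329, minus strand of chromosome 3 at 116109949 to 116129688 in mm10). In Light, Vcam1 had 245, 139.9 and 169.7 CPM in knockout cells, against 88.6, 88.4 and 94.9 CPM in control cells. In Heavy, Vcam1 had 424, 206 and 204 CPM in knockout cells, against 151, 179 and 174 CPM in control cells. In Total, Vcam1 had 291, 206 and 221 CPM in knockout cells, against 186, 196 and 163 CPM in control cells. No pair of groups overlapped, and the knockout library numbered 1 was the highest in each fraction. Vcam1 rose in Light by 0.98 on the log2 scale (SE 0.24, limma adjusted p = 0.00411), and by 0.76 without the knockout libraries numbered 1 (limma adjusted p = 5.26e-05). The log2 change in Heavy was 0.64 (SE 0.24, limma adjusted p = 0.0580). Without the 3 knockout libraries numbered 1 the Heavy change was 0.29 (limma adjusted p = 0.0488), and the ratio of mean CPM in Heavy was 1.22 in place of 1.66. Under 7 of 17 alternatives it was called in Heavy, with limma adjusted p of 0.0239 to 0.0488, and over all 17 the limma adjusted p reached 0.297. In Total the log2 change of 0.39 did not pass (SE 0.24, limma adjusted p = 0.272). The exons of Vcam1 overlap those of the antisense gene Gm43109. Whether the counting used strand is not known, and the part of Gm43109 in the Vcam1 values was not tested.

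Icam1 encodes ICAM-1, which leukocyte β2 integrins bind (gene 15894, plus strand of chromosome 9 at 21015985 to 21028817 in mm10). It was close to the limit of detection in these cells, under 0.7 CPM in every library. In Total, Icam1 had 19, 26 and 7 reads in the knockout libraries, against 0, 4 and 0 reads in control libraries. In Light, Icam1 had 22, 7 and 19 reads in knockout cells, against 0, 4 and 2 reads in control cells. In Heavy, Icam1 had 25, 8 and 19 reads in knockout cells, against 1, 1 and 4 reads in control cells. In CPM the knockout groups lay above the control groups without overlap in all 3 pools. Pooled over libraries, the ratio of knockout to control CPM was 13.7 in Total (95% interval 5.03 to 52.0), 8.48 in Light (3.62 to 24.2) and 9.38 in Heavy (4.03 to 26.7), with exact conditional intervals that cover counting error only. A library with 0 reads allows up to 3 counts, which is 0.0797 CPM and 0.0916 CPM in the control Total libraries numbered 1 and 3. On the log2(CPM + 1) scale the change was 0.49 in Total (SE 0.11, limma adjusted p = 0.00475), 0.35 in Light (SE 0.11, limma adjusted p = 0.0234) and 0.48 in Heavy (SE 0.11, limma adjusted p = 0.00474). The Light call was lost under 7 of 16 alternatives, with limma adjusted p up to 0.0933. The exons of Icam1 overlap those of the antisense gene Gm47079. Since the use of strand in counting is not known, reads in the shared exons cannot be assigned. The part of Gm47079 in these few reads was not tested.

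Without regard to the test, 7 of the 10 genes had knockout values above all control values in Total and 2 below them, where 24.4% and 20.2% of all tested genes did so. In Light 8 of the 10 lay above, against 33.3% of all genes, and in Heavy 5 did, against 24.1%. The 5 Total genes that did not overlap but were not called were Nfkb1, Nfkb2, Nfkbia, Tnfaip3 and Vcam1.

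For the genes that feed back on NF-κB and Nfkb2, which showed matches to the κB consensus in their promoter windows, the sequence before the start site is shown so that the matched letters can be seen. The windows run from 250 bases before to 50 after each RefSeq start, build GRCm38.p6, and 6 of the 10 genes matched the table, with 9 windows. Nfkb1, Relb, Ikbkb and Vcam1 have no entry there. Capitals mark the match to the κB consensus, read on either strand with overlapping matches joined. A further Tnfaip3 match begins before the printed bases and ends within the first of them, which are left in lower case since the match is not shown whole. Nfkb2 is shown as a 30-base site at chr19:46304692-46304721 on the plus strand, 45 to 16 bases before the start, because an annotated Nfkb2 exon covers it. The others are the 120 bases before the start, Nfkbia at chr12:55492648-55492767 on the minus strand, Nfkbie at chr17:45555580-45555699 on the plus strand and Tnfaip3 at chr10:19015411-19015530 on the minus strand.
Nfkb2: cgtcacGGGAATTCCCCccctcggggggcc
Nfkbia: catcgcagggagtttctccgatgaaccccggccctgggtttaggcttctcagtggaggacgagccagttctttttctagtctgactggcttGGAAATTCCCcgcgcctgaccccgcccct
Nfkbie: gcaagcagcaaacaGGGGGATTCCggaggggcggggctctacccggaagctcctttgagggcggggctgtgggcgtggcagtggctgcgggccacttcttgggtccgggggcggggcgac
Tnfaip3: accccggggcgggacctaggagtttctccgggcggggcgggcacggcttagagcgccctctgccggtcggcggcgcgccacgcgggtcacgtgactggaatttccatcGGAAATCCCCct

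A match to the κB consensus was present in 6 of the 9 windows, 3 of them of Nfkb2. Of all 32851 windows of the same length, 2779 held one (8.46%). By gene, 4 of the 6 had a match, where 2581 of all 27025 genes with a window did. Nfkb2 also had matches outside the printed bases, at 11 to 2 bases before the start of that window and in its other windows. Rela and Icam1 had no match to the consensus in their windows. Of the 4 genes with a match, Nfkb2, Nfkbia and Nfkbie rose in at least 1 pool, whereas Tnfaip3 passed the test in none. Rela and Icam1, without a match to the consensus, also rose in at least 1 pool. A match describes letters only.

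In control cells the 10 genes differed in where their messages lay on the gradient. Heavy over Light, 6 were higher and 1 was lower at a limma adjusted p under 0.05, where 50.7% of all genes were called, 23.6% as higher and 27.1% as lower. Nfkb2 was the furthest to the Heavy side, at a ratio of Heavy to Light CPM of 1.73, 1.95 and 2.20 in the libraries numbered 1 to 3, with a log2 difference of 0.95 (SE 0.15, limma adjusted p = 4.13e-05). Vcam1 followed at 0.88 (SE 0.24, limma adjusted p = 0.00548), Nfkbia at 0.80 (SE 0.11, limma adjusted p = 1.45e-05) and Ikbkb at 0.64 (SE 0.09, limma adjusted p = 7.92e-06). Nfkb1 was higher by 0.43 (SE 0.14, limma adjusted p = 0.0162) and Rela by 0.31 (SE 0.12, limma adjusted p = 0.0352). Nfkbie was the gene on the Light side, with ratios of 0.739, 0.709 and 0.730 and a log2 difference of -0.38 (SE 0.14, limma adjusted p = 0.0308). Relb, Tnfaip3 and Icam1 were not called. The groups did not overlap for the 6 higher genes and the 1 lower gene, where 26.8% and 31.6% of all genes lay higher and lower without overlap. The calls of Nfkb1, Rela and Nfkbie were lost under 3, 6 and 6 alternatives, mostly the fits that leave out 1 control library.

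In knockout cells the ratios of Heavy to Light CPM were lower for several of these genes, although no difference passed the test. Nfkbia had ratios of 1.32, 1.46 and 1.19 in knockout cells, against 1.86, 1.76 and 1.70 in control cells. Rela had 0.829, 1.07 and 1.05 in knockout cells, against 1.14, 1.23 and 1.36 in control cells. Relb had 0.783, 0.880 and 1.02 in knockout cells, against 1.15, 1.13 and 1.07 in control cells. Ikbkb had 1.22, 1.45 and 1.44 in knockout cells, against 1.48, 1.72 and 1.51 in control cells. In these 4 genes the ratios of knockout and control cells did not overlap, and no gene of the 10 had higher knockout values without overlap. On the log2(CPM + 1) scale the same 4 genes lay lower without overlap, as did 17.2% of all tested genes, while 8.84% of all lay higher. The tests of the difference, knockout minus control in Heavy minus Light, gave -0.41 for Nfkbia (95% interval -0.76 to -0.07, limma adjusted p = 0.210), -0.34 for Rela (95% interval -0.69 to 0.00, limma adjusted p = 0.331), -0.32 for Relb (95% interval -0.66 to 0.03, limma adjusted p = 0.383) and -0.19 for Ikbkb (95% interval -0.45 to 0.07, limma adjusted p = 0.525). Of the 10 genes, 0 were called, where 2.87% of all genes were. By voom the count was 0 as well, and at an unadjusted p under 0.05 it was 1, Nfkbia. Heavy and Light libraries of the same number deviated together, and with the number within genotype as a block 10 genes in all were called in place of 503, with none of the 10 NF-κB genes in either fit. Without the knockout Heavy library numbered 1, Nfkbia was called (-0.51, limma adjusted p = 0.0372, in a range of 0.0372 to 0.565 over 24 alternatives). The median of the 10 differences was -0.24, beside -0.02 over all tested genes and -0.06 over the 11602 genes averaging 1 CPM or more.

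**Figure D3:**
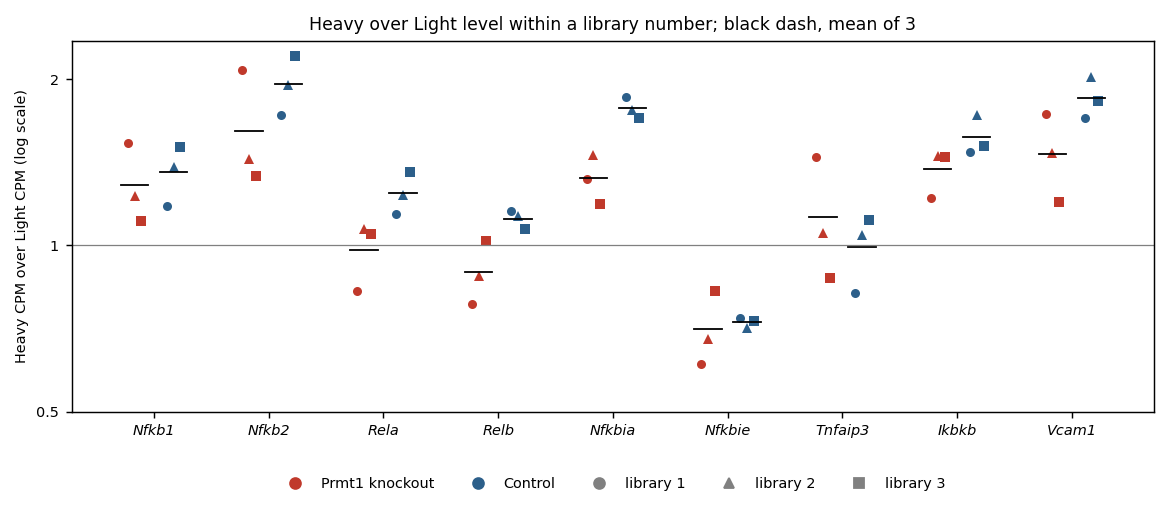
Ratio of Heavy to Light CPM (log axis) in libraries of the same number for 9 of the genes, knockout left of control; Icam1 is left out because a control library has 0 reads. Dashes are means of 3 ratios, and the knockout ratios of Nfkbia, Rela, Relb and Ikbkb lie below all control ratios of the same gene, as did the values of 17.2% of all tested genes on the log2(CPM + 1) scale; none of the 4 differences passed the test (limma adjusted p = 0.210 to 0.525).

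The changes in Light and Heavy were also set against those in Total. For Light minus Total 0 of the 10 genes were called by limma or by voom, and 0% of all genes were called by limma. Nfkb2 was the furthest, with 0.65 (95% interval 0.20 to 1.09, limma adjusted p = 0.119), and it was called when only the libraries of the comparison entered the fit (limma adjusted p = 0.0327, in a range of 0.0327 to 0.441 over 23 alternatives). At an unadjusted p under 0.05 the genes were Nfkb2 and Nfkbia, with Nfkbia at 0.37 (95% interval 0.03 to 0.72). For Heavy minus Total 0 of the 10 were called by limma or by voom, where 0.0114% of all genes were (0.00571% higher and 0.00571% lower), and 0 had an unadjusted p under 0.05. Tnfaip3 was the furthest there, with 0.52 (95% interval -0.01 to 1.057, limma adjusted p = 0.653).

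The other genes of the pathway were followed in 9 lists drawn up with earlier results known, 123 of whose 127 genes were tested. In Total 41 were higher in the knockout (33.3%) and 7 lower (5.69%), in Light 54 (43.9%) and 9 (7.32%), and in Heavy 35 (28.5%) and 7 (5.69%). The share called higher lay above that of all tested genes in each pool, and the share called lower lay below it. Over the alternatives the higher and lower counts ranged from 26 to 41 and 5 to 10 in Total, 36 to 57 and 7 to 15 in Light, and 28 to 39 and 4 to 13 in Heavy. The 26 in Total are of 86 genes left by the filter at 1 CPM, and the 15 lower in Light came from median-of-ratios scaling and from removal of the coding-length trend. In Heavy the 13 lower came from median-of-ratios scaling, and the 4 lower from the libraries of the comparison alone and from leaving out the control library numbered 2 or 3. Their median log2 change was 0.13 in Total, 0.30 in Light and 0.10 in Heavy.

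**Figure D4:**
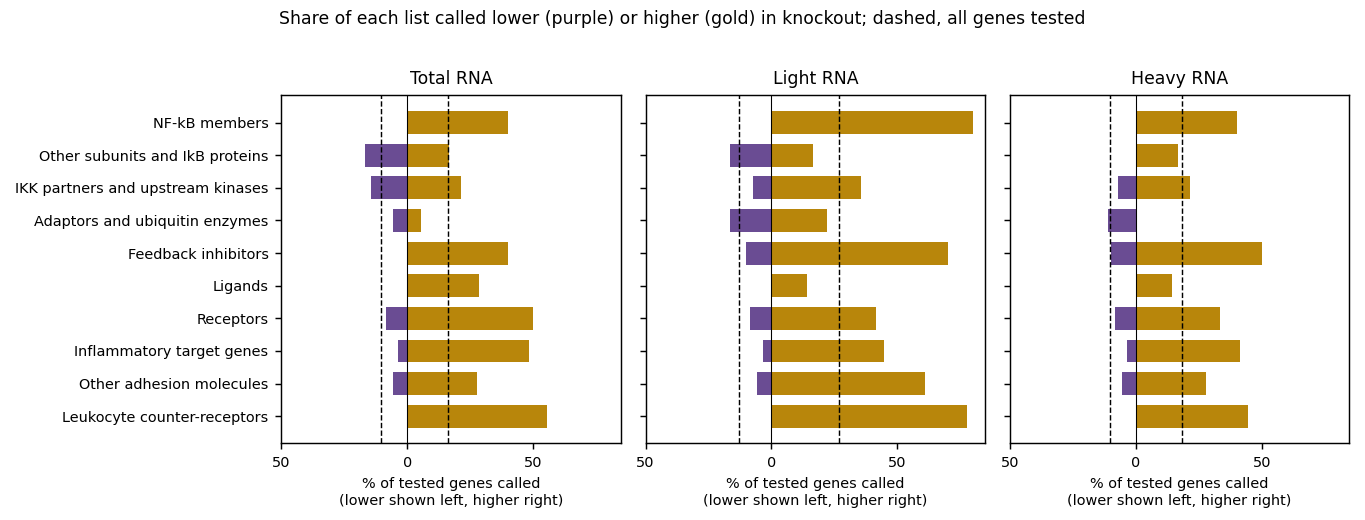
Percent of the tested genes of each pathway list called higher (gold, right) or lower (purple, left) in the knockout in Total, Light and Heavy RNA, with the 10 genes as the top bar and dashed lines at the share of all tested genes. Of the other lists, leukocyte counter-receptors and feedback inhibitors have the longest bars on the right in Light, with 7 of 9 and 7 of 10 genes higher; 2 of these 9 and 9 of these 10 averaged 1 CPM or more.

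Among the other subunits and IκB proteins, 1 of 6 rose and 1 fell in Total. These counts lay near the shares of all tested genes, 16.1% called higher and 10.3% lower. Bcl3, an atypical IκB that works with p50 and p52 dimers in the nucleus, averaged 8.67 ± 2.5 CPM in knockout Total and 3.87 ± 1.1 CPM in control Total (SD, n = 3 each), a log2 change of 0.98 (limma adjusted p = 0.00176). Nfkbiz, another nuclear IκB, averaged 10.1 ± 1.3 CPM in knockout Total and 18.3 ± 2.3 CPM in control Total, a log2 change of -0.79 (limma adjusted p = 0.00231). Thus the pair of nuclear IκB genes moved in opposite directions.

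Of the 14 partners and upstream kinases of the IKK complex, 3 rose and 2 fell in Total. This was near the 16.1% of all tested genes called higher and the 10.3% called lower. Ikbke, which encodes the related kinase IKKε, rose by 0.67 (limma adjusted p = 0.00133), and Irak2, a kinase of interleukin-1 and Toll-like receptor signalling, by 0.65 (limma adjusted p = 0.00235). Irak1, a related kinase of the same receptors' signalling, averaged 39.6 ± 3.1 CPM in knockout Total and 91.0 ± 3.3 CPM in control Total, a log2 change of -1.18 (limma adjusted p = 0.00169). Ikbkg, the regulatory subunit NEMO of the IKK complex, had a log2 change of -0.42 (limma adjusted p = 0.0112), a call that was lost without the control library numbered 1 (limma adjusted p = 0.0600). Among 18 adaptors and ubiquitin enzymes 1 rose and 1 fell, both under the shares of all tested genes. Traf2 changed by 0.35 (limma adjusted p = 0.0106), a call lost under median-of-ratios scaling and without the control library numbered 1 (limma adjusted p up to 0.0629). Traf5, a related adaptor, fell by 0.96 on the log2 scale (limma adjusted p = 2.97e-04).

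The feedback inhibitors, a list that does not hold the 10 genes themselves, had 4 of 10 higher and 0 lower in Total, 7 higher and 1 lower in Light, and 5 higher and 1 lower in Heavy. Beside these, 16.1%, 26.8% and 18.5% of all tested genes were called higher in Total, Light and Heavy. Called lower were 10.3%, 12.7% and 10.4%. Tnip1, a ubiquitin-binding partner of A20, averaged 93.3 ± 8.0 CPM in knockout Total and 56.8 ± 5.4 CPM in control Total, a log2 change of 0.71 (limma adjusted p = 1.27e-04). Tax1bp1, another A20 partner, changed by 0.73 in Total (limma adjusted p = 0.0122), a call lost without the control library numbered 3 or the knockout library numbered 1 (limma adjusted p up to 0.0738). In Light and Heavy it rose by 0.96 and 1.055 on the log2 scale (limma adjusted p = 0.00114 and 7.43e-04).

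Of 7 tested ligands, 1 of which averaged 1 CPM or more, 2 were higher in Total and 0 lower. Of 12 receptors, 8 of which averaged 1 CPM or more, 6 were higher and 1 lower in Total. For both lists, the shares of all tested genes in Total were 16.1% higher and 10.3% lower. Tlr2, a Toll-like receptor for bacterial lipoproteins, averaged 8.87 ± 1.2 CPM in knockout Total and 3.89 ± 0.76 CPM in control Total, a log2 change of 1.02 (limma adjusted p = 0.00303). Il1rap and Il1r1 encode the chains of the interleukin-1 receptor and moved in opposite directions, with log2 changes of 0.81 for Il1rap (limma adjusted p = 0.0462) and -0.52 for Il1r1 (limma adjusted p = 0.0232). Both calls in Total were fragile, lost under 11 and 4 of 17 alternatives, with limma adjusted p up to 0.133 and 0.0950.

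Inflammatory target genes of NF-κB had 14 of 29 higher and 1 lower in Total, 13 and 1 in Light, and 12 and 1 in Heavy. Of these 29 genes 20 averaged 1 CPM or more. The shares of all tested genes called higher were 16.1%, 26.8% and 18.5% in Total, Light and Heavy, and those called lower 10.3%, 12.7% and 10.4%. C3, the central complement component, averaged 29.1 ± 13.7 CPM in knockout Total and 0.484 ± 0.12 CPM in control Total, a log2 change of 4.25 (limma adjusted p = 9.57e-07). Ccl2, a monocyte chemokine, averaged 76.0 ± 21.3 CPM in knockout Total and 12.3 ± 2.2 CPM in control Total, a log2 change of 2.51 (limma adjusted p = 2.17e-07). Cxcl5, a neutrophil chemokine, averaged 3.44 ± 1.7 CPM in knockout Total and 24.7 ± 2.6 CPM in control Total, a log2 change of -2.60 (limma adjusted p = 2.54e-07). On this scale each of these 3 changes was larger than that of any of the 10 NF-κB genes.

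Of 18 other adhesion molecules, 9 of which averaged 1 CPM or more, 5 were higher and 1 lower in Total. In Light 11 were higher and 1 lower. All tested genes gave 16.1% higher and 10.3% lower in Total, and 26.8% and 12.7% in Light. F11r, a junctional adhesion molecule, and Icam5, a relative of ICAM-1 found mostly in neurons, each rose by 1.01 on the log2 scale in Total (limma adjusted p = 1.30e-04 and 1.16e-04). Alcam, another immunoglobulin-type adhesion molecule, averaged 10.0 ± 1.2 CPM in knockout Total and 26.3 ± 5.9 CPM in control Total, a log2 change of -1.29 (limma adjusted p = 2.00e-05). Of 9 tested leukocyte counter-receptor genes, 2 of which averaged 1 CPM or more, 5 were higher and 0 lower in Total. Itgb7, the β7 integrin chain, averaged 49.9 ± 10.3 CPM in knockout Total and 6.91 ± 1.3 CPM in control Total, a log2 change of 2.68 (limma adjusted p = 1.53e-07). Its α4 partner gene, Itga4, has no row under that symbol in the deposited table.

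In knockout Total, 5 of 7 tested macrophage markers, 3 of 8 endothelial and 2 of 3 lymphocyte markers were called higher and 0 lower. There 16.1% of all tested genes were called higher and 10.3% lower. In Light 4, 3 and 1 of these markers were higher and in Heavy 3, 4 and 0, with 0 lower in both. Averaging 1 CPM or more were 3 of these macrophage, 3 endothelial and 0 lymphocyte markers. The summed level of 8 macrophage markers was 16.4 to 20.1 CPM in knockout Total and 6.62 to 8.73 CPM in control Total. It was 17.1 to 23.1 CPM in knockout Light and 8.44 to 9.22 CPM in control Light, and 12.1 to 16.0 CPM in knockout Heavy and 8.96 to 10.1 CPM in control Heavy. Of these markers, Ptprc, Adgre1, Fcgr1 and Aif1 averaged under 0.1 CPM over the 18 libraries, and Csf1r and Cd14 made up most of the sum. The sum of 10 endothelial markers was 125 to 141 CPM in knockout Total and 84.9 to 106 CPM in control Total. Eng accounted for most of it, and Cdh5, Tek, Tie1, Emcn and Cldn5 averaged under 0.1 CPM. The 7 lymphocyte markers present summed to at most 0.498 CPM in knockout Total and 0.0610 CPM in control Total. For the labelled bone tumour, the osteoblast markers, among them Col1a1, Col1a2, Sparc, Runx2 and Alpl, had a summed level of 6037 to 7864 CPM in knockout Total and 4351 to 6144 CPM in control Total, while Bglap and Ibsp were near or under 0.1 CPM. Col1a1, Col1a2 and Sparc made up most of that sum. Of the 9 osteoblast markers tested, 4 were higher and 3 lower in knockout Total, 5 and 2 in Light, and 4 and 2 in Heavy. In Light and Heavy, 26.8% and 18.5% of all tested genes were called higher, and 12.7% and 10.4% lower. The part of these markers in the NF-κB results was not tested.

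Genes with the pattern most like each of the 10 were sought by Pearson correlation of log2(CPM + 1) over the 18 libraries among 9651 genes averaging 5 CPM or more. The 18 libraries share 2 kinds of cells and 3 fractions, so these values describe likeness of pattern and carry no test. The closest genes were Myo1c for Nfkb2 (r = 0.985), Lrp5 for Relb (0.980), Lrch1 for Vcam1 (0.979), Atp6ap1 for Nfkbia (0.978) and Yap1 for Ikbkb (0.974). For Rela it was Pla2g6 (0.963), for Nfkbie Wdtc1 (0.947), for Tnfaip3 Bard1 (0.937), for Nfkb1 Ptpn14 (0.931) and for Icam1 Notch3 (0.895). None of the 10 genes was among the closest 3 of another, with Icam1 too low in level to be considered.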

How the data were processed

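Total, Light and Heavy RNA of knockout and control cells was measured by RNA sequencing, 3 libraries per group. The deposited values are log2(CPM + 1), made by the authors with STAR, mm10 and edgeR per the submitters' processing notes, without versions. The counter, its annotation and whether it used strand were not given in the sources used here. After the log2 was undone, 100% of values came to whole reads (tolerance 0.1), and the depths follow from these.

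The design assumed either unit and used, for logged values, limma (3.58.1 in R 4.3.3) with trend and robust variances on 6 group means, over genes above 0 in at least 3 libraries (17515), with calls where the Benjamini-Hochberg adjusted p was under 0.05, and was tested on simulated data. Python 3.11.15 with pandas 2.3.3, numpy 2.4.6, matplotlib 3.10.9 and scipy 1.17.1 made tables and figures. Intervals are 95%. Gene coordinates and exon lengths are from GENCODE vM21 and promoter windows from RefSeq.

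All 10 genes are named. Of each other list, up to 2 called genes with the highest and 2 with the lowest log2 change in Total, with a mean of at least 1 CPM, may be named, and for each of the 10 genes its 3 most alike. Members and lists were chosen with earlier results of these data known. The alternatives were quantile normalization, median-of-ratios scaling, voom, 2 filters, no trend, fewer libraries in the fit, a pseudocount of 0.1, a replicate block, removal of a coding-length trend over 50 bins, and leaving out libraries. A block by number within genotype over the Heavy and Light libraries was added after seeing the data. Numbers were checked by correlating deviations from group means. Heavy and Light libraries of a number deviated together (0.276 to 0.602 in knockout and 0.324 to 0.412 in control cells). Knockout and control libraries of a number did so unevenly, at -0.453 to -0.233 in Heavy, -0.0680 to 0.0833 in Light and -0.161 to 0.558 in Total. For Light with Total the correlations were 0.434 to 0.642 among knockout libraries and -0.647 to 0.355 among control libraries. For Heavy with Total they were 0.0609 to 0.510 among knockout libraries and -0.448 to 0.165 among control libraries. By the design, the main fit of every comparison used no pairs. Raw reads were not analysed here.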

Additional observations from a re-analysis of the deposited data

How the results depend on the processing

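Over the 10 genes and 7 comparisons, 1383 alternative values were computed: 1312 kept the side of the threshold, 49 lost a call, 22 gained one and 0 reversed a called change. Of 23 called values 15 held under every alternative run. The number of the 10 genes called was unchanged within 1.5 times except as follows. In Total 4 became 7 with only the libraries of the comparison in the fit, and 7 without the 3 knockout libraries numbered 1. In Light 8 became 5 under quantile normalization. For Heavy minus Light in control cells 7 became 4 without the control Heavy library numbered 2 or 3. For the difference between genotypes, 0 became 1 for Heavy minus Light without the knockout Heavy library numbered 1, and 0 became 1 for Light minus Total with only the libraries of the comparison. Leaving out 1 library at a time gave 3 to 4 calls in Total, 6 to 8 in Light, 3 to 5 in Heavy, 4 to 6 for control Heavy minus Light, 0 to 1 for Heavy minus Light between genotypes, and 0 for the other differences. In those Total fits 20.6% to 23.3% of all tested genes were called. Such shares are not given here for the alternative fits of the other comparisons. The cause of these moves was not tested.

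Knockout and control libraries share only a number, with correlations of -0.453 to -0.233 in Heavy and -0.161 to 0.558 in Total. With the replicate block the calls were 5 for Total, 7 for Light and 5 for Heavy, and 0 for Light minus Total between genotypes. In Total 26.9% of all tested genes were called with that block, against 26.4% without it. For Heavy and Light libraries, which the numbers pair, the block within genotype gave 7 calls in control cells and 0 between genotypes, as without it. The depth of 32.3 to 57.9 M reads limits Icam1, which had at most 26 reads in a library, and no alternative with a mean of at least 1 CPM could test it.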
